A study of Mus musculus with 3 samples.

Results

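Hepatocyte zonation genes are transcripts whose level differs between hepatocytes at the portal end of a liver lobule and those around its central vein. The set described here has 32 of the 34099 genes measured, matched by gene symbol and each found once. Of these, 13 were grouped as periportal, 14 as pericentral and 5 (Alb, Tat, Tdo2, Cyp27a1 and Bhmt) were given no zone, Alb because it also chose the barcodes. Blood enters a lobule at the portal tract with oxygen, hormones and nutrients and leaves at the central vein, and hepatocytes along that path share out the work. Periportal hepatocytes are known for urea synthesis, gluconeogenesis and breakdown of amino acids, while pericentral ones hold glutamine synthesis, bile acid synthesis and much of the cytochrome P450 system, in part under Wnt signals from the central vein. Paracetamol is turned into a reactive product by cytochrome P450 enzymes of the pericentral cells, which is where an overdose kills hepatocytes.

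All 3 mice had received 500 mg/kg paracetamol (acetaminophen, APAP). At 6 h they were given PBS, native mesenchymal stromal cells (MSCs), or MSCs engineered with bispecific polyvalent peptides, and livers were taken after 4 days. Strain, sex and age of the mice and the source of the MSCs are not given in the labels, and no uninjured liver was analysed here. Dissociated liver cells were profiled by droplet single-cell RNA sequencing, in which each transcript is counted by a unique molecular identifier (UMI) under the barcode of its droplet. Each group is 1 mouse and 1 library, so there is no spread between animals and no test was made. Every interval is a 95% interval for counting error only, and every statement compares these 3 libraries, not the treatments. The PBS, native MSC and engineered MSC libraries held 10739, 11479 and 11028 barcodes with 82247448, 84950721 and 62564254 UMIs. Pairs of libraries shared between 39 and 46 barcode sequences, of which at most 1 was a hepatocyte barcode.

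Hepatocytes were a small part of each library. Barcodes with Alb at 1% or more of nuclear-encoded UMIs were 0.197% of kept PBS barcodes, 0.831% of native MSC and 10.4% of engineered MSC barcodes. This left 21 PBS barcodes, and its mt-poor class had 17, under the 50 set as the least number for a comparison between libraries. A wider gate was therefore added after seeing the data. It took barcodes with Alb at 0.1% or more and with at least 1% of UMIs from 19 other hepatocyte transcripts (lipoproteins, fibrinogen, transthyretin and the like), a share at least 3 times that of lymphocyte barcodes in the same library. That set the limit on these transcripts at 1% in PBS and native MSC but 1.70% in engineered MSC. Their median share in the barcodes taken was 1.62% in PBS, under the engineered limit, 3.78% in native MSC and 4.73% in engineered MSC. Lymphocyte barcodes of engineered MSC held Alb at 0.208%, above the 0.1% asked for. Barcodes with 0.5% or more of UMIs from markers of other lineages were left out in both gates as likely doublets. The wider gate held 212 PBS, 626 native MSC and 2222 engineered MSC barcodes, or 1.99%, 6.05% and 20.7% of those kept. Within a factor of 5/4 of the limit on the hepatocyte transcripts lay 73, 62 and 165 barcodes, and as near the limit on Alb 27, 134 and 12, so the gate is a range of barcodes and not a cell type. Values below are from the wider gate unless the Alb gate of 1% is named.

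These barcodes were split by the share of UMIs from 13 genes encoded in the mitochondrion (mt- genes). Barcodes under 2% are called mt-poor (194 PBS, 583 native MSC and 1453 engineered MSC) and those from 2% to 50% mt-holding (18, 43 and 769). A median of 0.164%, 0.0799% and 0.385% of UMIs were mitochondrial in the mt-poor class, again in the order PBS, native MSC, engineered MSC. Malat1, a long noncoding RNA that stays in the nucleus, was also low in mt-poor barcodes, at 599, 347 and 753 UMIs per 1000000 nuclear-encoded UMIs (CPM). In mt-holding barcodes it stood at 12761, 4521 and 5315 CPM, and in lymphocyte barcodes of the same libraries at 8334, 6196 and 9516. Barcodes poor in mt- transcripts were poor in this nuclear RNA too. Because the mt-holding class is under 50 barcodes in PBS and native MSC, libraries were compared in mt-poor barcodes only, as ratios of CPM.

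In these libraries most pericentral members stood higher with either kind of MSC than with PBS, and periportal members differed less. In engineered MSC against PBS, 9 of the 12 pericentral members that reached 20 UMIs over both libraries were over 2-fold higher and 0 were over 2-fold lower, with a median log2 ratio of 2.04. The 13 periportal members had a median of 0.64, with 2 over 2-fold higher and 0 lower. A call of over 2-fold also needed an interval that excludes equality, and of all 10466 genes with that many UMIs 8.22% were over 2-fold higher and 11.5% lower, with a median of -0.10. In native MSC against PBS, 8 of 10 pericentral members were over 2-fold higher (median 1.77) and 3 of 13 periportal ones (median 0.29), with 0 lower in either zone, beside 4.82% of 9332 genes higher, 13.7% lower and a median of -0.29. Both comparisons share the PBS library, so they are not independent. Cyp2a5, Cyp7a1, Tbx3 and Axin2 had 1 PBS UMI each and Lhpp 2, so those tested reached 20 UMIs through the MSC library. The MSC classes were deeper (870362 nuclear-encoded UMIs in PBS, 4314506 in native and 6031943 in engineered MSC), so genes high there entered more easily. The count of 9 includes Cyp2a5, Cyp7a1 and Tbx3, and the count of 8 includes Cyp2a5, Cyp7a1 and Lhpp. The medians rest in part on these members too. The 20 hepatocyte markers, 19 of which set the gate, had median log2 ratios to PBS of 0.32 in engineered and 0.45 in native MSC. The plot of member levels by library shows the values behind these ratios.

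**Figure D1:**
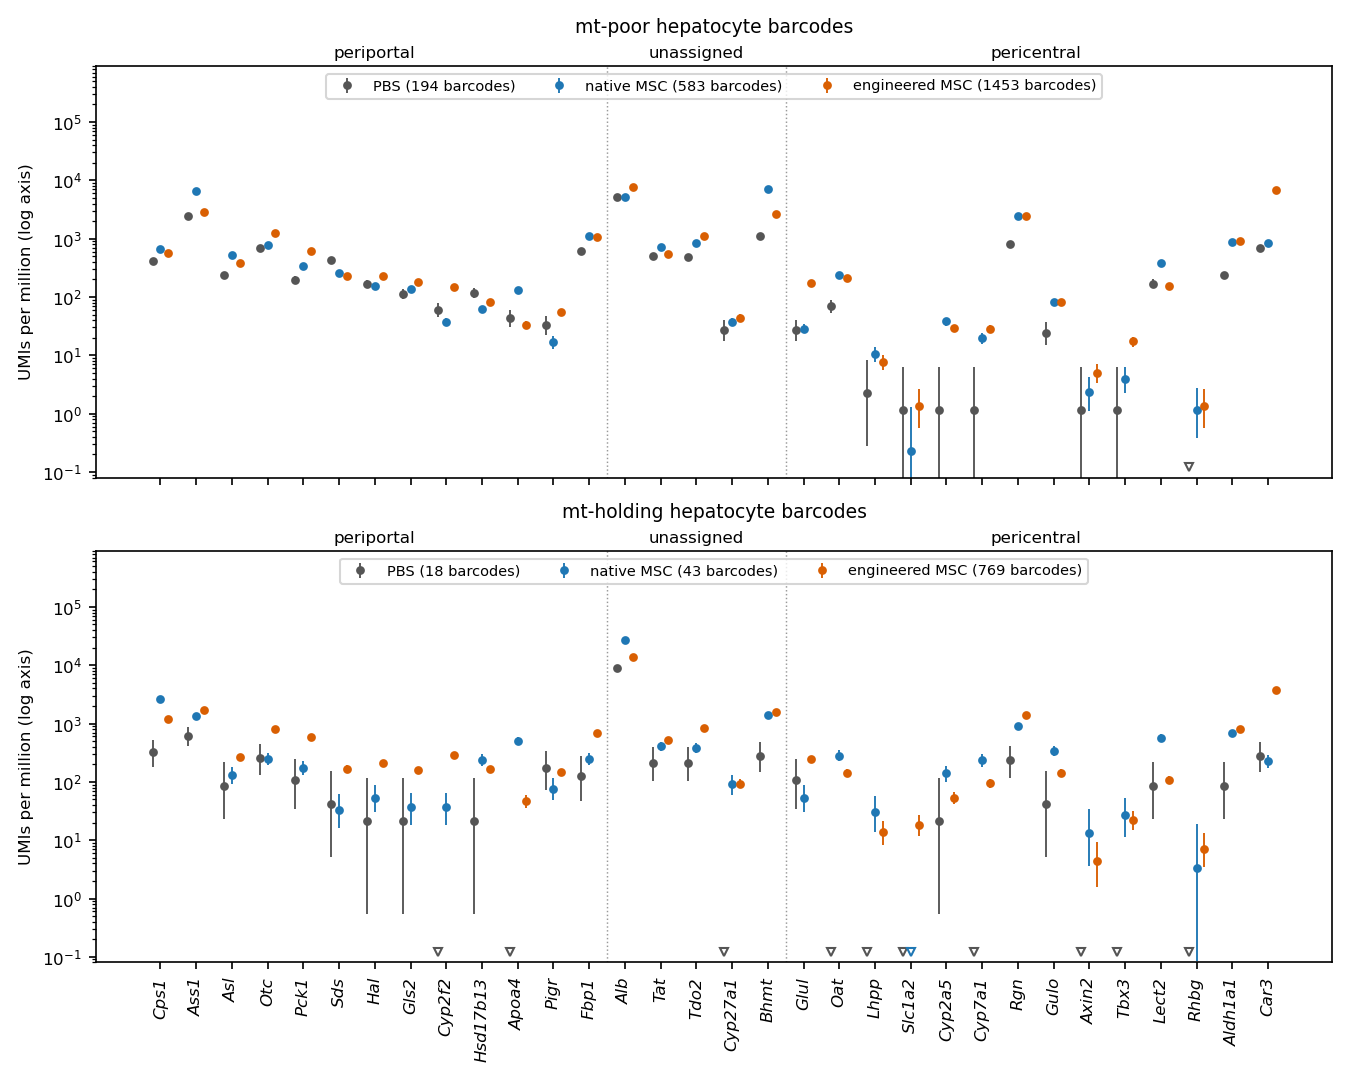
CPM of the 32 members (log axis) in mt-poor (top) and mt-holding (bottom) hepatocyte barcodes of the 3 libraries, with exact Poisson 95% intervals for counting error; an open triangle marks 0 UMIs. In mt-poor barcodes most pericentral members, such as Rgn and Aldh1a1, lie lowest in PBS, while the periportal members Sds and Hsd17b13 lie highest in PBS.

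Between the MSC libraries, how far the zones lay apart depended on the gate. In the wider gate as set they lay close. Engineered against native MSC gave a periportal median of 0.35 (2 of 13 over 2-fold higher, 2 lower) and a pericentral median of 0.03 (4 of 12 higher, 1 lower), beside 0.22 for 11050 genes, of which 14.5% were over 2-fold higher and 4.97% lower. With the Alb gate of 1%, which left 617 engineered and 60 native mt-poor barcodes, the same medians were 1.01 (7 of 13 higher, 1 lower) and -0.75 (3 of 10 higher, 4 lower). There 28.8% of 6887 genes were over 2-fold higher and 5.23% lower, with a median of 0.56. The pericentral median thus changed sign with the gate.

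Promoter sequence was read for the members as a description that does not use the counts. Windows of 250 bases before the start of transcription were read from RefSeq (GRCm38.p6) for 21 of the 32 members, 22 windows in all. Windows were searched on both strands for CTTTGA, the core bound by TCF/LEF factors of the Wnt pathway, and for TTGCNNNAA, a C/EBP motif. CTTTGA was found in 5 of 22 member windows (Aldh1a1, Lect2, Slc1a2, Hal and Hsd17b13) beside 13.8% of all 32851 windows. TTGCNNNAA was found in 3 (Alb, Aldh1a1 and Pck1) beside 8.29% of all windows, and matches of different motifs did not overlap. Carriers of CTTTGA were 3 pericentral and 2 periportal members. CAAAGTCCA (HNF4A), TGACGTCA (a cyclic AMP response element) and TGACGCAA (C/EBP-ATF) had 0 matches in the member windows, beside 0.384%, 1.55% and 0.438% of all windows. Shown are a pericentral window with both motifs, a periportal window with each motif, and that of Glul, the marker of hepatocytes at the central vein, with none; capitals mark the matches.

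Pericentral Aldh1a1 (chr19:20492333-20492582, plus strand) has CTTTGA or its complement 147, 130 and 88 bases before the start and the C/EBP motif at 14, Hal (chr10:93488518-93488767, plus) has CTTTGA at 199, Pck1 (chr2:173152823-173153072, plus) has the C/EBP motif at 28, and Glul (chr1:153899679-153899928, plus) has no match.
Aldh1a1: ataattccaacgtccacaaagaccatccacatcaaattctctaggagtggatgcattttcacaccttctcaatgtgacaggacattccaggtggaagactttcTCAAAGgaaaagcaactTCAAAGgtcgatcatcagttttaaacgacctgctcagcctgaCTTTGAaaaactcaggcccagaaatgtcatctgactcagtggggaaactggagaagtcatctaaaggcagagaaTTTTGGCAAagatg
Hal: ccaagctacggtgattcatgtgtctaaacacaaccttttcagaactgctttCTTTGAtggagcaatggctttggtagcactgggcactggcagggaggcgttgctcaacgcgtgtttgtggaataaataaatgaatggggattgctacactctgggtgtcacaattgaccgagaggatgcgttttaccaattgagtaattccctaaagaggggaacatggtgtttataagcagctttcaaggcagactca
Pck1: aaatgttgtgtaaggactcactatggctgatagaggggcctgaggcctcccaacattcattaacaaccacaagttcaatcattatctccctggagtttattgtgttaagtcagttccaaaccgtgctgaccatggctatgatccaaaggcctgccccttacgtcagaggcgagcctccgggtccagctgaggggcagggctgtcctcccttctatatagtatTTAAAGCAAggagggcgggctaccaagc
Glul: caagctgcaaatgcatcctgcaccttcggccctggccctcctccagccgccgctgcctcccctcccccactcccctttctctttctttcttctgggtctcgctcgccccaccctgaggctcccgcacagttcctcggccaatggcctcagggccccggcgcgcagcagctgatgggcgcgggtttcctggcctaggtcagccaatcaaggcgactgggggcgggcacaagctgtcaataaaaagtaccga
A match describes letters in the window and not a bound site. Aldh1a1 has a further window (chr19:20601718-20601967, plus strand) that held no match, and which start of Aldh1a1 these hepatocytes use was not tested.

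Glul, the glutamine synthetase that marks the hepatocytes next to the central vein, was among the pericentral members highest in engineered MSC. Its level in mt-poor barcodes was 27.6 CPM in PBS, 28.5 in native MSC and 173 in engineered MSC. The engineered value was 6.29-fold (4.20 to 9.86) that in PBS and 6.08-fold (5.04 to 7.39) that in native MSC, while native MSC and PBS differed by 1.03-fold (0.664 to 1.67). Lymphocyte barcodes, which served to gauge free RNA and other sources, held 123, 52.0 and 64.1 CPM of Glul. The level in PBS and native MSC hepatocyte barcodes was under that of lymphocytes, and the engineered one was above it. Free RNA and other sources of the lymphocyte Glul were not told apart. With the Alb gate of 1% engineered MSC was 2.51-fold (1.61 to 4.08) native MSC.

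Glul was concentrated in few barcodes. After thinning each barcode to 1000 nuclear-encoded UMIs, Glul was seen in 7 of 154 PBS (4.55%, 1.85 to 9.14), 13 of 543 native MSC (2.39%, 1.28 to 4.06) and 97 of 1126 engineered MSC (8.61%, 7.04 to 10.4) mt-poor barcodes. Thinning left out 40, 40 and 327 shallower barcodes. Without it the shares were 10.8%, 12.7% and 18.5%, at median depths of 2292, 4867 and 2394 UMIs. Lymphocyte barcodes, thinned alike, gave 5.65%, 4.09% and 4.46% at median depths of 2784, 4377 and 3417, so the PBS and native MSC shares were at or under those of lymphocytes. Of the 97 engineered barcodes, 22 held 2 or more Glul UMIs among their 1000, up to 15.

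Engineered MSC mt-poor barcodes with Glul also held more of 5 of the 9 other pericentral members with enough UMIs than those without, while intervals of Cyp2a5, Cyp7a1, Gulo and Tbx3 include equality. Oat, the mitochondrial ornithine aminotransferase, stood at 753 CPM in the 97 barcodes with a Glul UMI and 109 in the 1029 without, a ratio of 6.91 (5.08 to 9.37). Rgn (regucalcin, a gluconolactonase of vitamin C synthesis) was 2.42-fold (2.17 to 2.69) higher, Lect2 (a secreted Wnt-induced protein) 2.15-fold (1.19 to 3.65) and Aldh1a1 (a retinaldehyde dehydrogenase) 1.71-fold (1.43 to 2.03). Car3 (carbonic anhydrase 3) stood at 7928 against 6336 CPM. Of 13 periportal members 8 were lower there (Ass1, Asl, Pck1, Sds, Hal, Gls2, Hsd17b13 and Fbp1), with Sds, the serine dehydratase, at 92.8 against 292 CPM and Asl, the argininosuccinate lyase, at 165 against 372. Cps1 and Otc, the urea cycle enzymes of the mitochondrion, had ratios of 0.779 (0.572 to 1.04) and 1.01 (0.835 to 1.22), and Cyp2f2, Pigr and Apoa4 of 0.605 (0.297 to 1.11), 1.82 (0.897 to 3.38) and 1.52 (0.386 to 4.33), with intervals that include equality. In engineered MSC mt-holding barcodes, 41 with Glul and 354 without, Oat had a ratio of 4.41 (2.55 to 7.45) and Rgn of 2.13 (1.72 to 2.63), and Car3 was lower with Glul, at 0.797 (0.665 to 0.949). Aldh1a1 at 1.30 (0.904 to 1.83) and Lect2 at 2.59 (0.851 to 6.69) had intervals that include equality, and 5 of 12 periportal members (Cps1, Ass1, Otc, Sds and Gls2) were lower. The rule of 1 or more Glul UMIs was set after seeing that 2 or more left under 30 barcodes in each class. A member counted as higher or lower when its interval excluded equality, with no fold limit. No share of all genes is given beside these counts, so how unusual they are cannot be judged. Of members without a zone, Alb (0.888) and Tat (0.680) were also lower with Glul in mt-poor barcodes, while Tdo2, Cyp27a1 and Bhmt had intervals that include equality.

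A group of pericentral enzymes stood higher with both kinds of MSC than with PBS. Rgn stood at 796 CPM in PBS, 2452 in native MSC and 2407 in engineered MSC. Engineered MSC was 3.02-fold (2.80 to 3.27) PBS, native MSC 3.08-fold (2.85 to 3.33) PBS, and engineered over native MSC gave 0.982 (0.958 to 1.01). Aldh1a1 was also lowest in PBS, at 236 CPM in PBS, 881 in native MSC and 917 in engineered MSC, with ratios to PBS of 3.89 (3.38 to 4.50) in engineered and 3.74 (3.25 to 4.33) in native MSC. Oat stood at 68.9 CPM in PBS, 238 in native MSC and 210.2 in engineered MSC, with ratios to PBS of 3.05 (2.35 to 4.02) in engineered and 3.46 (2.66 to 4.56) in native MSC. Gulo, the gulonolactone oxidase that ends vitamin C synthesis, came from 21 UMIs in PBS and stood at 24.1 CPM in PBS, 80.9 in native MSC and 81.4 in engineered MSC. Its ratio of engineered MSC to PBS, 3.37 (2.18 to 5.50), was under 2-fold at a log2 of 0.91 when the hepatocyte transcripts had to reach 2%. Each of these 4 genes was lowest in PBS, and the MSC libraries lay under 2-fold apart.

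Car3 was also highest in engineered MSC. Its level was 692 CPM in PBS, 834 in native MSC and 6892 in engineered MSC. Engineered MSC was 9.96-fold (9.19 to 10.8) PBS and 8.26-fold (7.98 to 8.55) native MSC, and native MSC was 1.21-fold (1.11 to 1.32) PBS. Lymphocyte barcodes followed the same order, with 3.95, 9.54 and 192 CPM of Car3.

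Cyp2a5 and Cyp7a1 had 1 UMI each in PBS mt-poor barcodes. Cyp2a5, a coumarin hydroxylase, had 1, 164 and 174 UMIs in PBS, native MSC and engineered MSC, or 1.15 CPM in PBS, 38.0 in native MSC and 28.8 in engineered MSC. Its ratios to PBS were 33.1 (5.86 to 1315) in native and 25.1 (4.45 to 997) in engineered MSC. Cyp7a1, the rate-limiting enzyme of bile acid synthesis, had 1, 84 and 173 UMIs, or 1.15 CPM in PBS, 19.5 in native MSC and 28.7 in engineered MSC. Its ratios to PBS were 16.9 (2.96 to 677) in native and 25.0 (4.42 to 992) in engineered MSC. The width of these intervals comes from the 1 UMI in PBS. Lymphocyte barcodes held 1.58 CPM of Cyp2a5 in PBS, 0.427 in native MSC and 7.28 in engineered MSC. For Cyp7a1 they held 0, 1.42 and 6.65 CPM. The level in lymphocyte barcodes thus differed between the libraries too, and for Cyp2a5 in PBS it was over that of hepatocyte barcodes. Lhpp, a histidine phosphatase, had 2, 45 and 46 UMIs, with 4.54-fold (1.19 to 38.6) PBS in native MSC and 3.32-fold (0.868 to 28.2) in engineered MSC, the latter with an interval that includes equality. Slc1a2, a glutamate transporter of the cell membrane, and Rhbg, an ammonium transporter, had at most 8 UMIs in any mt-poor class and stayed under the count needed for a ratio. The 0 UMIs of Rhbg in PBS allow up to 3.45 CPM.

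Members that are Wnt targets differed from each other. Tbx3, a transcription factor of pericentral hepatocytes, had 1, 17 and 104 UMIs (1.15 CPM in PBS, 3.94 in native MSC and 17.2 in engineered MSC). Engineered MSC was 4.38-fold (2.61 to 7.80) native MSC. Lect2 was highest in native MSC at 170.0 CPM in PBS, 379.6 in native MSC and 152 in engineered MSC, where it was 2.23-fold (1.89 to 2.66) PBS, while engineered MSC and PBS differed by 0.895-fold (0.752 to 1.07). Lect2 in native MSC was under 2-fold over PBS, at a log2 of 0.85, when the hepatocyte transcripts had to reach 2%. Axin2, a feedback inhibitor of the Wnt pathway, was at 1.15 CPM in PBS, 2.32 in native MSC and 4.97 in engineered MSC. These lay under the 7.31, 8.11 and 10.2 CPM of lymphocyte barcodes, but what part of the lymphocyte level is free RNA was not tested. Engineered over native MSC was 2.15-fold and turned to a log2 of -0.05 with Alb at 0.25% or more. Of 13 other Wnt pathway genes, 0 of the 10 with enough UMIs were over 2-fold apart between engineered MSC and PBS. In native MSC against PBS, 2 of 8 were lower, Ctnnb1 (β-catenin) and Apc (a part of the complex that degrades it). Ctnnb1 stood at 233 CPM in PBS, 104 in native MSC and 146 in engineered MSC. Apc stood at 21.8 CPM in PBS, 7.19 in native MSC and 14.9 in engineered MSC. Lgr5 (a receptor), Nkd1 and Sp5 (Wnt targets) had 0 UMIs in PBS and at most 9 in the other libraries.

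Other pericentral genes, 10 landmarks that are not members, stood higher as well, and so did periportal landmarks in native MSC. Between engineered MSC and PBS 7 of 10 were over 2-fold higher and 0 lower, and between native MSC and PBS 6 were higher and 1, Mup17 (a major urinary protein), lower. Slco1b2, a hepatic uptake transporter, stood at 12.6 CPM in PBS, 61.2 in native MSC and 170.3 in engineered MSC. Cyp2c29 (a P450 enzyme) stood at 21.8 CPM in PBS, 161 in native MSC and 186 in engineered MSC, and Cyp1a2, one of the P450 enzymes that activate paracetamol, at 19.5 CPM in PBS, 135 in native MSC and 146 in engineered MSC. All 3 were lowest in PBS. Of 10 periportal landmarks, 4 were over 2-fold higher in engineered MSC than in PBS and 0 lower (median log2 0.43), and in native MSC 6 were higher and 1 lower (median 1.03). The landmark medians of the pericentral list were 1.64 and 1.48.

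**Figure D2:**
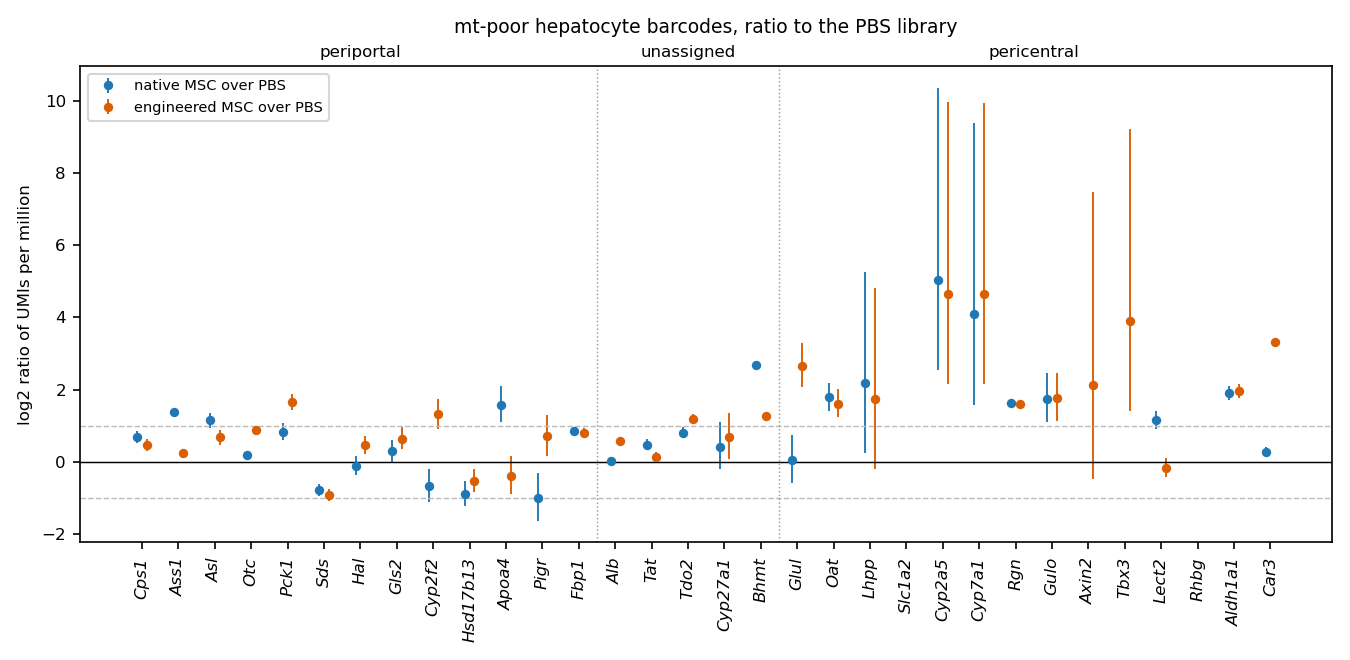
Log2 ratio of CPM to the PBS library in mt-poor hepatocyte barcodes, for members that reached 20 UMIs over both libraries, with exact 95% intervals for counting error; dashed lines mark 2-fold. Pericentral members mostly lie above the upper dashed line in both comparisons, Glul, Car3 and Lect2 part between the MSC libraries, and the wide intervals of Cyp2a5, Cyp7a1, Axin2 and Tbx3 rest on 1 PBS UMI each.

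Urea cycle enzymes were found in all libraries, and the 2 that act in the cytosol, Ass1 and Asl, were highest in native MSC. Ass1, the argininosuccinate synthase, stood at 2473 CPM in PBS, 6486 in native MSC and 2904 in engineered MSC. Native MSC was 2.62-fold (2.51 to 2.74) PBS and engineered MSC 1.17-fold (1.12 to 1.23) PBS. Asl stood at 238 CPM in PBS, 526 in native MSC and 380.3 in engineered MSC, or 2.21-fold (1.92 to 2.56) PBS in native MSC, a log2 of 0.79 with Alb at 0.25% or more. Cps1, the carbamoyl phosphate synthase that brings ammonia into the cycle, was at 408 CPM in PBS, 652 in native MSC and 561 in engineered MSC. Otc, the ornithine carbamoyltransferase, was at 682 CPM in PBS, 769.7 in native MSC and 1245 in engineered MSC. In the wider gate Cps1 and Otc were under 2-fold apart between any 2 libraries. Ass1 was also the urea cycle member over 2-fold apart between MSC libraries in this gate. It was 2.23-fold (2.19 to 2.28) lower in engineered than in native MSC, and under 2-fold at a log2 of -0.81 with Alb at 0.25% or more. With the Alb gate of 1%, 0 of 4 urea cycle members were over 2-fold lower in engineered MSC and 1 was higher (median log2 0.92). There 5.23% of all genes were lower and 28.8% higher. Among 6 partners of the cycle, Slc25a13, the aspartate carrier of the mitochondrion, stood at 56.3 CPM in PBS, 143 in native MSC and 233 in engineered MSC and was over 2-fold higher than PBS with both MSCs. So were Arg1 (arginase) and Nags (the synthase of the activator of Cps1) in native MSC.

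Members of glucose synthesis and amino acid breakdown split between the libraries, and their ratios depended on the gate. In the wider gate, used for the values below, 0 of 7 were over 2-fold apart between the MSC libraries (median log2 0.35). With the Alb gate of 1%, 4 of 7 were over 2-fold higher and 0 lower in engineered than in native MSC (median 2.16). There 28.8% of all genes were higher and 5.23% lower, with a median of 0.56. Pck1, which controls entry into gluconeogenesis, stood at 194 CPM in PBS, 346 in native MSC and 611 in engineered MSC, 3.15-fold (2.70 to 3.69) PBS in engineered MSC. Sds was highest in PBS, at 437 CPM in PBS, 253 in native MSC and 229.9 in engineered MSC. PBS was 1.90-fold (1.69 to 2.13) over engineered MSC and 1.73-fold (1.53 to 1.94) over native MSC. Hal (histidine ammonia lyase) at 167 CPM in PBS, 154 in native MSC and 229.9 in engineered MSC was under 2-fold apart. So were Gls2 (the liver glutaminase) at 114 CPM in PBS, 139 in native MSC and 177 in engineered MSC and Fbp1, the fructose bisphosphatase, at 609 CPM in PBS, 1093 in native MSC and 1059 in engineered MSC. Of the 2 members without a zone in this group, Tdo2 (tryptophan dioxygenase) stood at 489 CPM in PBS, 857 in native MSC and 1112 in engineered MSC, and engineered MSC was 2.27-fold (2.06 to 2.51) PBS. Tat (tyrosine aminotransferase) stood at 507 CPM in PBS, 706 in native MSC and 553 in engineered MSC, under 2-fold in each pair. Scaled by the median ratio of all genes, Pck1, Fbp1 and Tdo2 in native MSC passed 2-fold over PBS, at log2 ratios of 1.12, 1.13 and 1.10. G6pc, the glucose 6-phosphatase that releases glucose, is no member and stood at 4.60 CPM in PBS, 3.01 in native MSC and 46.8 in engineered MSC, from 4, 13 and 282 UMIs.

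The other periportal members had no common order. Cyp2f2, a P450 enzyme of periportal cells, stood at 59.7 CPM in PBS, 37.5 in native MSC and 149 in engineered MSC, with engineered MSC 3.96-fold (3.35 to 4.71) native MSC and 2.49-fold (1.88 to 3.36) PBS. The latter was under 2-fold, at a log2 of 0.88, once the level in lymphocyte barcodes was subtracted. Apoa4, an apolipoprotein, was highest in native MSC at 43.7 CPM in PBS, 131 in native MSC and 33.3 in engineered MSC, 3.00-fold (2.16 to 4.28) PBS. Hsd17b13, a lipid droplet dehydrogenase, was at 117 CPM in PBS, 63.3 in native MSC and 81.6 in engineered MSC. Pigr, the receptor that carries IgA into bile, was at 33.3 CPM in PBS, 16.7 in native MSC and 54.4 in engineered MSC. Pigr in PBS came from 29 UMIs, 16 of them in 4 barcodes with bile duct markers, and without those 4 it stood at 16.6 CPM, which puts engineered MSC 3.27-fold above PBS. Alb itself, on which barcodes were chosen, stood at 5153 CPM in PBS, 5200.1 in native MSC and 7637 in engineered MSC.

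Bhmt, which remethylates homocysteine, was highest in native MSC, at 1119 CPM in PBS, 7128 in native MSC and 2689 in engineered MSC. Native MSC was 6.37-fold (5.98 to 6.80) PBS and engineered MSC 2.40-fold (2.25 to 2.57) PBS, the latter at a log2 of 0.88 when each barcode counted alike. Cyp27a1, a mitochondrial enzyme of the other route to bile acids, stood at 27.6 CPM in PBS, 36.9 in native MSC and 44.4 in engineered MSC and was under 2-fold apart in each pair.

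The PBS barcodes also differed from the rest in genes of injury and regrowth and in markers of other cells. Of 12 such genes, 10 were over 2-fold lower in engineered MSC than in PBS (median log2 -2.74), and in native MSC 7 were lower and 1, Afp (alpha-fetoprotein), higher (median -1.12). Krt8, a keratin of simple epithelia, stood at 2486 CPM in PBS, 887 in native MSC and 279.8 in engineered MSC. Atf3, a stress-induced transcription factor, stood at 137 CPM in PBS, 22.5 in native MSC and 6.47 in engineered MSC. Spp1 (osteopontin) stood at 2936 CPM in PBS, 277 in native MSC and 80.7 in engineered MSC. Bile duct markers (3 of 3 seen in PBS) summed to 0.0180% of UMIs in PBS mt-poor barcodes, 2.32e-05% in native MSC, where Krt19 and Krt7 were at 0, and 0.000149% in engineered MSC. The 157 UMIs of PBS lay in 4 barcodes. Without those 4, which were left out after seeing the data, Spp1 stood at 389.7 CPM in PBS, and the injury genes over 2-fold lower numbered 10 in engineered and 5 in native MSC (medians -2.47 and -0.48). Member medians were then 2.28 (pericentral) and 0.50 (periportal) in engineered MSC and 1.70 and 0.15 in native MSC, beside 2.04, 0.64, 1.77 and 0.29 with them. Counts of pericentral members over 2-fold higher stayed at 9 of 12 and 8 of 10. They again include Cyp2a5, Cyp7a1 and Tbx3 in engineered MSC and Cyp2a5, Cyp7a1 and Lhpp in native MSC. These members kept their 1 or 2 PBS UMIs, so leaving out the 4 barcodes could hardly change their calls. Of the periportal members in engineered MSC, 3 (Pck1, Cyp2f2 and Pigr) were then higher and 1 (Sds) lower. Macrophage markers (7 of 7, 7 of 7 and 6 of 7 seen in PBS, engineered and native MSC, with Clec4f at 0 in native MSC) summed to 0.0497%, 0.0112% and 0.0128%. Neutrophil and haemoglobin markers were highest in native MSC, at 0.0400% and 0.0546%, against at most 0.00414% and 0.00759% in the others. The part of these macrophage, neutrophil and red cell transcripts in the member ratios was not tested.

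Most members stood above the level in lymphocyte barcodes, used to gauge free RNA. Of the 32, 23, 28 and 29 had an interval above that of lymphocyte barcodes in PBS, native MSC and engineered MSC mt-poor barcodes. These counts also depend on depth, which was 870362, 4314506 and 6031943 nuclear-encoded UMIs, and no share of all genes is given beside them. The median ratio to lymphocyte barcodes was 78.2, 56.8 and 9.96, lowest in engineered MSC. In PBS the 9 members without such a gap were all pericentral, namely Glul, Oat, Lhpp, Slc1a2, Cyp2a5, Cyp7a1, Axin2, Tbx3 and Rhbg. In the 18 PBS mt-holding barcodes 10 of the 32 members had 0 UMIs, each of which allows up to 63.8 CPM.

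In the MSC libraries, members with enough UMIs were compared between barcodes ordered by other zonation genes, and most lay on the side of their own zone. Thinned barcodes were ordered by the share of pericentral landmarks among the UMIs of 20 landmark genes that are not members (10 for each zone), and cut into 3 groups of equal size, of which the highest (the pericentral end) and the lowest (the periportal end) were compared. In engineered MSC mt-poor barcodes, 371 at each end, 9 of 12 periportal members with enough UMIs were on the periportal side and 0 on the pericentral side, while 6 of 8 pericentral members were on the pericentral side and 0 on the other. Here and below, a side means an interval of the ratio that excludes equality, with no fold limit. No share of all genes on each side is given beside these counts or those below, so how unusual they are cannot be judged. Glul stood at 37.7 CPM in the periportal end and 409.7 in the pericentral end, a ratio of 10.9 (6.28 to 20.3). Oat had a ratio of 7.44 (4.53 to 12.9), Rgn of 3.68 (3.26 to 4.16), Lect2 of 3.50 (1.98 to 6.54) and Gulo of 2.35 (1.30 to 4.43). Sds stood at 477 CPM in the periportal and 64.7 in the pericentral end, 7.38-fold (4.80 to 11.8) lower. Pck1 was 4.09-fold (3.29 to 5.11) lower, Hal 4.15-fold (3.00 to 5.83) and Gls2 3.45-fold (2.26 to 5.41). These ends had like depth and mt- share, with medians of 3241 and 3108 UMIs and of 0.334% and 0.340%.

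Other members barely followed the landmarks. Cps1 had a ratio of 1.02 (0.851 to 1.22) between these ends, and so was on neither side. The other urea cycle members were periportal, Ass1 at 0.670 (0.612 to 0.733), Asl at 0.588 (0.450 to 0.763) and Otc at 0.722 (0.632 to 0.825). Car3 was flat too, at 1.01 (0.957 to 1.07), although grouped as pericentral. Without Serpina1e, a protease inhibitor and the most abundant landmark, Car3 had a ratio of 1.28 (1.20 to 1.35), and 7 of 7 pericentral members were on the pericentral side.

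Engineered MSC mt-holding barcodes, 125 at each end, gave similar counts. There 9 of 12 periportal members were on the periportal side, and 5 of 6 pericentral members on the pericentral side, with Glul at a ratio of 7.50 (3.57 to 18.2) and Rgn at 3.36 (2.65 to 4.29). The exception was Car3, on the periportal side at 0.770 (0.677 to 0.874), and without Serpina1e on neither, at 4293 CPM at the periportal and 4759 at the pericentral end.

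Native MSC mt-poor barcodes, 176 at each end, had 7 of 11 periportal members on the periportal side and 4 of 6 pericentral ones on the pericentral side, with 0 on the wrong side. Oat, with 19 UMIs in the periportal and 63 in the pericentral end, had a ratio of 3.32 (1.96 to 5.87) and Aldh1a1 of 1.97 (1.57 to 2.49), while Sds had by coincidence the reverse counts, 63 and 19. Lect2 had no side at 0.932 (0.634 to 1.37) with all landmarks and was pericentral at 2.14 (1.43 to 3.25) without Serpina1e. Alb turned from 0.562 (0.509 to 0.621) to 1.92 (1.74 to 2.13) with that change. In PBS, at 43 barcodes at each end, few members had enough UMIs, and 1 of 7 periportal members, Sds, was on the periportal side and 1, Cps1 at 2.45 (1.18 to 5.48), on the pericentral side. Cps1 was on neither without Serpina1e, at 1.67 (0.845 to 3.40). Of 3 pericentral members 1, Rgn at 1.72 (1.03 to 2.94), was on the pericentral side. The PBS class was added after seeing the data, since the rule had asked for 150 barcodes.

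**Figure D3:**
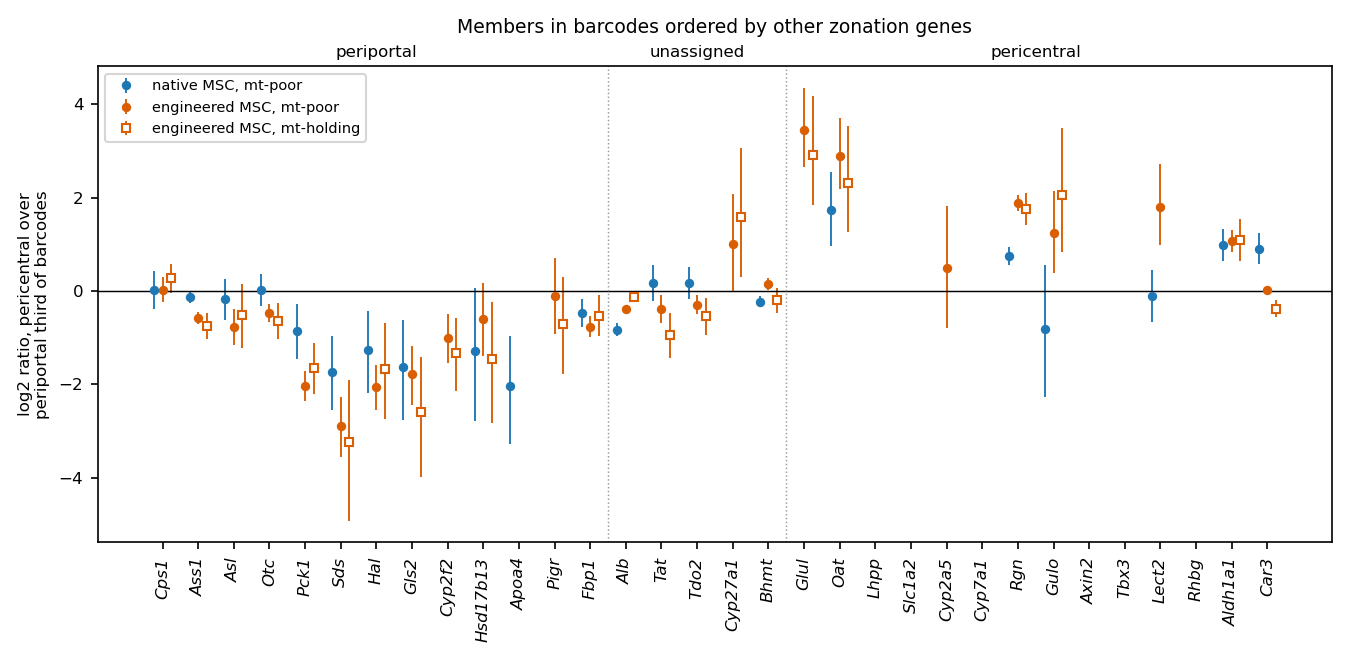
Log2 ratio of each member between the pericentral and the periportal end of barcodes ordered by 20 landmark genes that are not members, in 3 classes, with exact 95% intervals for counting error; members with under 20 UMIs in the pair are left blank. Pck1, Sds, Hal and Gls2 lie below 0 and Oat, Rgn and Aldh1a1 above 0 in all 3 classes, while Cps1 lies near 0.

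Members also differed between mt-poor and mt-holding barcodes of 1 library. In native MSC, with 43 mt-holding barcodes, the periportal median of mt-holding over mt-poor was -1.53 (4 of 13 over 2-fold higher, 7 lower) and the pericentral one 0.91 (5 of 11 higher, 2 lower), beside 29.6% of 9132 genes higher, 9.6% lower and a median of 0.34. In engineered MSC the medians were -0.14 (3 of 13 higher, 0 lower) and 0.37 (2 of 13 higher, 0 lower), beside 32.7% of 11035 genes higher, 0.761% lower and 0.50. With the Alb gate of 1% the native periportal median turned to 0.67, on 26 mt-holding barcodes (3 of 12 over 2-fold higher, 3 lower, beside 29.4% and 10.9% of 4439 genes). The engineered one was -0.30 (0 of 13 higher, 0 lower, beside 22.2% and 1.41% of 8105 genes). Endothelial and lymphocyte markers were also higher in mt-holding barcodes. Endothelial markers summed to 0.00767% in mt-holding and 0.000579% in mt-poor barcodes of native MSC (4 of 5 seen in the former, Clec4g at 0) and to 0.0321% and 0.00683% in engineered MSC (5 of 5). T and B cell markers summed to 0.0277% and 0.00234% in native MSC (in 4 of 43 barcodes of the former) and to 0.0144% and 0.00678% in engineered MSC. Their part in the member differences was not tested.

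Grouped by where the product works, a grouping made after seeing the data, 9 of 14 members of the cytosol were over 2-fold lower and 1 higher in native MSC mt-holding barcodes (median -1.48), beside 9.6% and 29.6% of all genes. Of 7 members other than Alb whose product is made at the endoplasmic reticulum or secreted, 5 were over 2-fold higher and 0 lower (median 1.90). Alb was left out after seeing the data because it chose the barcodes. In engineered MSC the median was -0.42 for the cytosol (0 of 14 over 2-fold), beside 0.761% of all genes lower. The endoplasmic reticulum and secreted group had a median of 0.86 (2 of 7 higher), beside 32.7% of all genes higher and their median of 0.50. With the Alb gate of 1% these medians were -0.53 and 0.83 in native MSC and -0.35 and 0.46 in engineered MSC. Cyp7a1 was 12.0-fold (8.61 to 16.7) higher in native and 3.28-fold (2.60 to 4.14) in engineered mt-holding barcodes. Among cytosolic enzymes, Bhmt was 5.05-fold (4.59 to 5.57) and 1.68-fold (1.61 to 1.76) lower, and Fbp1 4.42-fold (3.52 to 5.65) and 1.53-fold (1.43 to 1.64).

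**Figure D4:**
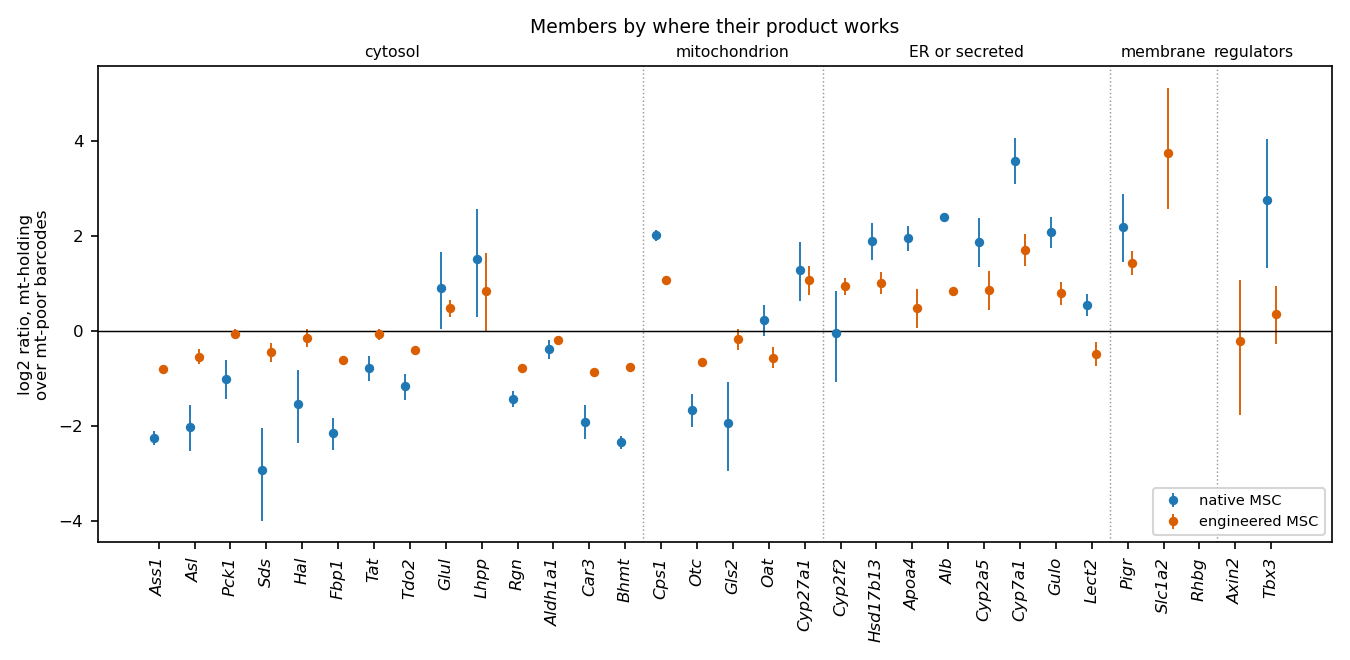
Log2 ratio of each member between mt-holding and mt-poor hepatocyte barcodes of the native MSC and the engineered MSC library, grouped by where the product works, with exact 95% intervals for counting error. Most cytosolic members lie below 0 and most members made at the endoplasmic reticulum (ER) or secreted above 0 (Alb, which chose the barcodes, is drawn but not counted), and Cps1 stands above the other mitochondrial members in native MSC.

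Members of the urea cycle differed from each other. Cps1 was 4.06-fold (3.75 to 4.40) higher in native and 2.10-fold (1.98 to 2.23) in engineered mt-holding barcodes, while Ass1 was 4.73-fold (4.29 to 5.23) and 1.73-fold (1.66 to 1.81) lower. As a share of Cps1 and Ass1 UMIs together, Cps1 made 14.2% (12.8 to 15.6) in mt-poor and 34.1% (20.5 to 49.9) in mt-holding PBS barcodes. In native MSC it made 9.14% (8.82 to 9.46) and 65.9% (63.1 to 68.6), and in engineered MSC 16.2% (15.7 to 16.7) and 41.2% (39.7 to 42.8). The share was higher in mt-holding barcodes of all 3 libraries, and with the Alb gate of 1% as well, at 13.2% (11.9 to 14.6) and 77.7% (75.0 to 80.2) in native MSC and 32.7% (31.2 to 34.2) and 56.2% (54.0 to 58.3) in engineered MSC. Otc, also of the mitochondrion, did not follow Cps1 and was 3.16-fold (2.51 to 4.04) and 1.57-fold (1.48 to 1.68) lower in mt-holding barcodes.

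The same genes were followed over bins of the mt- share. From the lowest bin, under 0.1% mt- UMIs, to the highest, from 20% to 50%, Malat1 in engineered MSC went from 516 to 9316 CPM, Alb from 5327 to 27783, Cps1 from 475 to 2979.9 and Ass1 from 3703 down to 808. Native MSC went from 664 to 5109 CPM for Cps1 and from 6933 to 801 for Ass1, with Cps1 at 196 in a bin of 5 barcodes. The 4 native bins above 2% held 5 to 19 barcodes each.

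**Figure D5:**
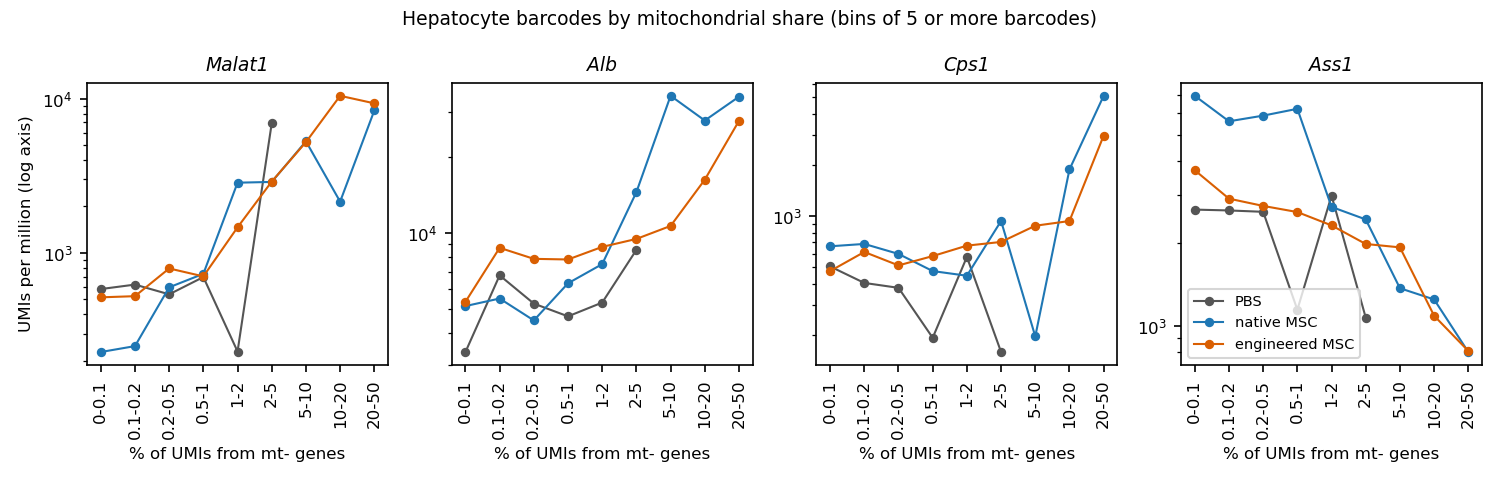
CPM (log axis) of Malat1, Alb, Cps1 and Ass1 in hepatocyte barcodes binned by their share of UMIs from mt- genes, for bins with at least 5 barcodes in the 3 libraries. In engineered MSC Malat1, Alb and Cps1 are highest and Ass1 lowest in the bins of 10% and more.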

How the data were processed

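Liver cells of 3 mice were profiled with 10x 3' libraries. The authors deposited raw UMI counts per gene and barcode, made with Cell Ranger 7.1.0 on GRCm39, per the submitters' processing notes. Depth was 62564254 to 84950721 UMIs per library. Barcodes needed 500 UMIs and 200 genes. Hepatocyte barcodes had Alb at 1% or more, or passed the wider gate. The Alb gate was the planned one, and the wider gate, the product locations, the rule of 1 Glul UMI, the minimum of 100 barcodes for ordering, and the settings without Serpina1e, Alb or bile duct barcodes were chosen after seeing the data. No doublet caller was run, and barcodes with 0.5% or more of UMIs from 38 markers of other lineages were dropped. This removed 35, 250 and 728 barcodes of the wider gate in PBS, native MSC and engineered MSC. UMIs were summed over barcodes and divided by nuclear-encoded UMIs (CPM). Intervals are exact Poisson for a level, exact conditional binomial for a ratio and Clopper-Pearson for a share, at 95%. Medians used genes with at least 20 UMIs in the pair. For genes with 0 UMIs in 1 class of a pair, 0.5 UMI stood in for 0. Members, lists and zones were chosen with earlier results of these data known. Other genes named from a list are up to 3 per list and comparison, those with the interval bound farthest from equality; Afp, Lgr5, Nkd1 and Sp5 were named after their values were seen. The calculation was tested on simulated data. Python 3.11.15, numpy 2.4.6, scipy 1.17.1, pandas 2.3.3 and matplotlib 3.10.9 were used. Promoter windows are of GRCm38.p6 and were not joined to the counts by position.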

Additional observations from a re-analysis of the deposited data

Results flagged for a closer look

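Lect2 went opposite ways in mt-holding against mt-poor barcodes of the MSC libraries, with a ratio of 1.48 in native MSC and 0.718 in engineered MSC. With 1 library each, that difference was not tested. Barcodes with Alb at 1% or more but over 50% mt- UMIs were outside every comparison. There were 185 of them in engineered MSC, 4 in native MSC and 1 in PBS. The 185 had a median of 404 nuclear-encoded UMIs and 76.2% mt- UMIs, with Alb at 38311 CPM, Cps1 at 3019, Ass1 at 1152, Glul at 53.8 and Malat1 at 7905.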

How the results depend on the processing

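No paired analysis was possible because each group is 1 mouse and the labels give no shared replicate numbers. With the Alb gate of 1%, PBS had 17 mt-poor barcodes and gave no comparison, and with Alb at 2% or more native MSC had 37 and gave none. Of values for single members under other settings, 476 stayed on the same side of 2-fold, 13 passed it and 10 lost it. Of members over 2-fold 1 reversed, Axin2 in engineered against native MSC at -0.0542 (Alb at 0.25%). For members not over 2-fold a change of sign was not counted. Those members were checked only with median ratio scaling, barcodes counted alike and free RNA subtracted. The latter 2 settings used no interval. Free RNA was taken as the level in lymphocyte barcodes, where other sources of a transcript were not told apart from it. With it subtracted nothing was left of Glul and Axin2 in PBS and native MSC, of Lhpp and Cyp2a5 in PBS, and of Axin2 in engineered MSC, so the ratios that need these levels gave no value. Of zone medians and shares, 86 stayed within limits set by counting error and 39 moved, and in each the cause was not tested. For a zone median these limits were the medians of its members' interval bounds, which is not an interval of the median itself. In engineered against native MSC with the Alb gate of 1%, the pericentral median of -0.75 was -1.03 (mt split at 5%), -0.91 (doublets kept), -1.31 (scaled by the median ratio of all genes), -0.88 (each barcode counted alike), -0.24 (no minimum count), -0.92 (first and last 16 members as zones) and -0.31 (hepatocyte list at 5%, no Alb). The periportal median of 1.01 was 0.45, 1.24 and 0.80 under the median ratio scaling, with barcodes alike and with the list at 5%. In the wider gate, periportal and pericentral medians of that pair were 0.13 and -0.18 (scaled by the median ratio), 0.59 and 0.25 (barcodes alike), 0.68 and -0.15 (hepatocyte list at 2%), 0.93 and -0.25 (Alb at 0.25%), and 0.0920 and -0.0457 (free RNA subtracted). Against PBS, the periportal median in engineered MSC was 0.95 (list at 2%) and 0.96 (Alb at 0.25%). In native MSC the periportal median was 0.00935 (barcodes alike) and the pericentral one 2.25 (Alb at 0.25%). The share of hepatocyte barcodes in PBS, native MSC and engineered MSC was 0.487%, 1.40% and 17.7% with Alb at 0.5%, 0.0844%, 0.551% and 3.63% with Alb at 2%, and 1.99%, 6.05% and 20.7% in the wider gate. It was 0.347% (PBS) and 3.24% (native MSC) with the list at 5% and no Alb, and 1.29% (native MSC) and 14.7% (engineered MSC) with doublets kept. In engineered MSC it was 9.14% with an mt limit of 20% and 8.15% with at least 500 genes.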

Other observations

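Of 10 hepatocyte transcription factors, 3 were over 2-fold higher and 0 lower in engineered MSC than in PBS mt-poor barcodes (median log2 0.75), beside 8.22% of all genes higher and their median of -0.10. Against native MSC 2 were higher and 0 lower (median 0.76), beside 14.5% and 0.22. Between native MSC and PBS 0 of 10 were over 2-fold apart (median -0.07). Onecut1 (HNF6) stood at 5.74 CPM in PBS, 6.26 in native MSC and 38.1 in engineered MSC, from 5 UMIs in PBS. Cebpa (C/EBPα) stood at 134 CPM in PBS, 128 in native MSC and 355 in engineered MSC, and Nr1h4, the bile acid receptor FXR, at 43.7 CPM in PBS, 84.8 in native MSC and 102 in engineered MSC. Of 6 partners of gluconeogenesis, 2 were over 2-fold higher in engineered MSC than in PBS (8.22% of all genes were), G6pc and the glucagon receptor Gcgr, the latter at 8.04 CPM in PBS, 15.5 in native MSC and 22.2 in engineered MSC.

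Wnt pathway genes were higher in mt-holding than in mt-poor barcodes, in 7 of 8 with enough UMIs in native MSC and 8 of 10 in engineered MSC (medians 2.47 and 1.54), beside 29.6% and 32.7% of all genes. Znrf3, a ligase that removes Wnt receptors, stood at 6.26 CPM in mt-poor and 120.1 in mt-holding barcodes of native MSC and at 9.12 CPM in mt-poor and 64.7 in mt-holding barcodes of engineered MSC. Rnf43, its close relative, stood at 3.24 CPM in mt-poor and 76.7 in mt-holding barcodes of native MSC and at 5.80 CPM in mt-poor and 30.9 in mt-holding barcodes of engineered MSC. Malat1 was higher in the same barcodes, as were endothelial markers, at 0.00767% against 0.000579% in native and 0.0321% against 0.00683% in engineered MSC. T and B cell markers were at 0.0277% against 0.00234% and 0.0144% against 0.00678%. The part of these in the differences was not tested.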
